A study of Triticum aestivum with 72 samples.

Results

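The 200 brightest probe sets of a wheat array were described in developing seeds collected 5 days after anthesis, that is, after flowering. A probe set is a group of short probes that reads 1 transcript, or several near-identical ones. Members were the 200 non-control probe sets, of 61179, with the highest mean log2 intensity over 72 arrays. They were thus chosen by the mean log2 intensity itself, and the means below are given as a description with no test. The means ran between 13.14 and 14.65 over the members, with a median of 13.41. The last member had a mean of 13.14 and the first probe set left out had 13.13, so the lower edge of the group is a cut in a continuum. Brightness mixes the amount of a transcript with how well its probes bind. The rank of 1 probe set against another is thus no measure of which transcript was more abundant, and "brightest" replaces "most abundant" here. Of the Affymetrix control probe sets, which the rule leaves out, 5 were as bright as the members. One member is itself a reporter control probe set and reads no wheat transcript.

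The seeds came from 36 lines of the wheat mapping population RL4452 x AC Domain, field-grown in a lattice layout. Each line had 2 arrays, labelled as biological replicates 3 and 1 in 35 lines and as 3 and 2 in line H9. Neither parent was among the arrays. RNA enriched for mRNA was labelled with biotin and hybridised to a 1-colour Affymetrix array on 12 different days, numbered here in order. The sources used here do not say whether a replicate number stands for a field block, so p-values measure the spread between these samples. Whole seeds hold several tissues, and fewer cells of a type cannot be told apart from less RNA per cell.

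Some arrays stood apart, or differed from the other array of their line, before any result was read. At 85 probe sets the arrays fell into 2 levels at least 0.8 log2 units apart. The arrays of a line should match there if the line sets the level, which was not tested. They differed at over 25% of these probe sets in 13 of the 36 lines, named unmatched lines below. The cut lies in a continuum, with A77 at 24.7% counted as matched and DH91 at 28.2% as unmatched. None of the 85 was a member. The 3 arrays farthest from the others over all probe sets were B65 replicate 1, B33 replicate 3 and C31 replicate 3. On 4 arrays, all of replicate 3, the members were dim as a group. Their mean over the members was 12.97 on B33, 13.07 on C31, 13.18 on E5 and 13.20 on H8, against a median of 13.53 over the 72 arrays.

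Very bright probe sets in a growing tissue usually read housekeeping transcripts. Translation elongation factors deliver aminoacyl-tRNA to the ribosome, tubulins and profilin build and remodel the cytoskeleton, and histones package newly made DNA. In cereals, the days after fertilisation are a phase of nuclear and cell division in the endosperm, and starch and storage proteins accumulate later. The outer layers of the young seed are green and carry photosynthetic transcripts.

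Of the 200 members, 50 carried a gene symbol, or 25%, against 2.08% of all probe sets. The symbols stand for 38 genes. Of these, 30 have only a locus number in the supplied tables, so their role is not described here. The 8 genes with another name, read by 10 member probe sets, fall into a few roles. Rbcl (LOC100049018) encodes the large subunit of Rubisco, the carbon-fixing enzyme. TEF1 (LOC543386) encodes translation elongation factor 1 alpha. SAHH encodes adenosylhomocysteinase, which removes the by-product of methylation reactions. TUBA encodes alpha-tubulin, PRO1 (LOC543315) the actin-binding protein profilin, and H2A-9 (LOC732714) a histone H2A. LTP3 (LOC543095) encodes a lipid transfer protein, one of the small secreted proteins that bind lipids. TCTP (LOC542949) encodes the translationally controlled tumour protein, a conserved protein linked to growth.

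**Figure D1:**
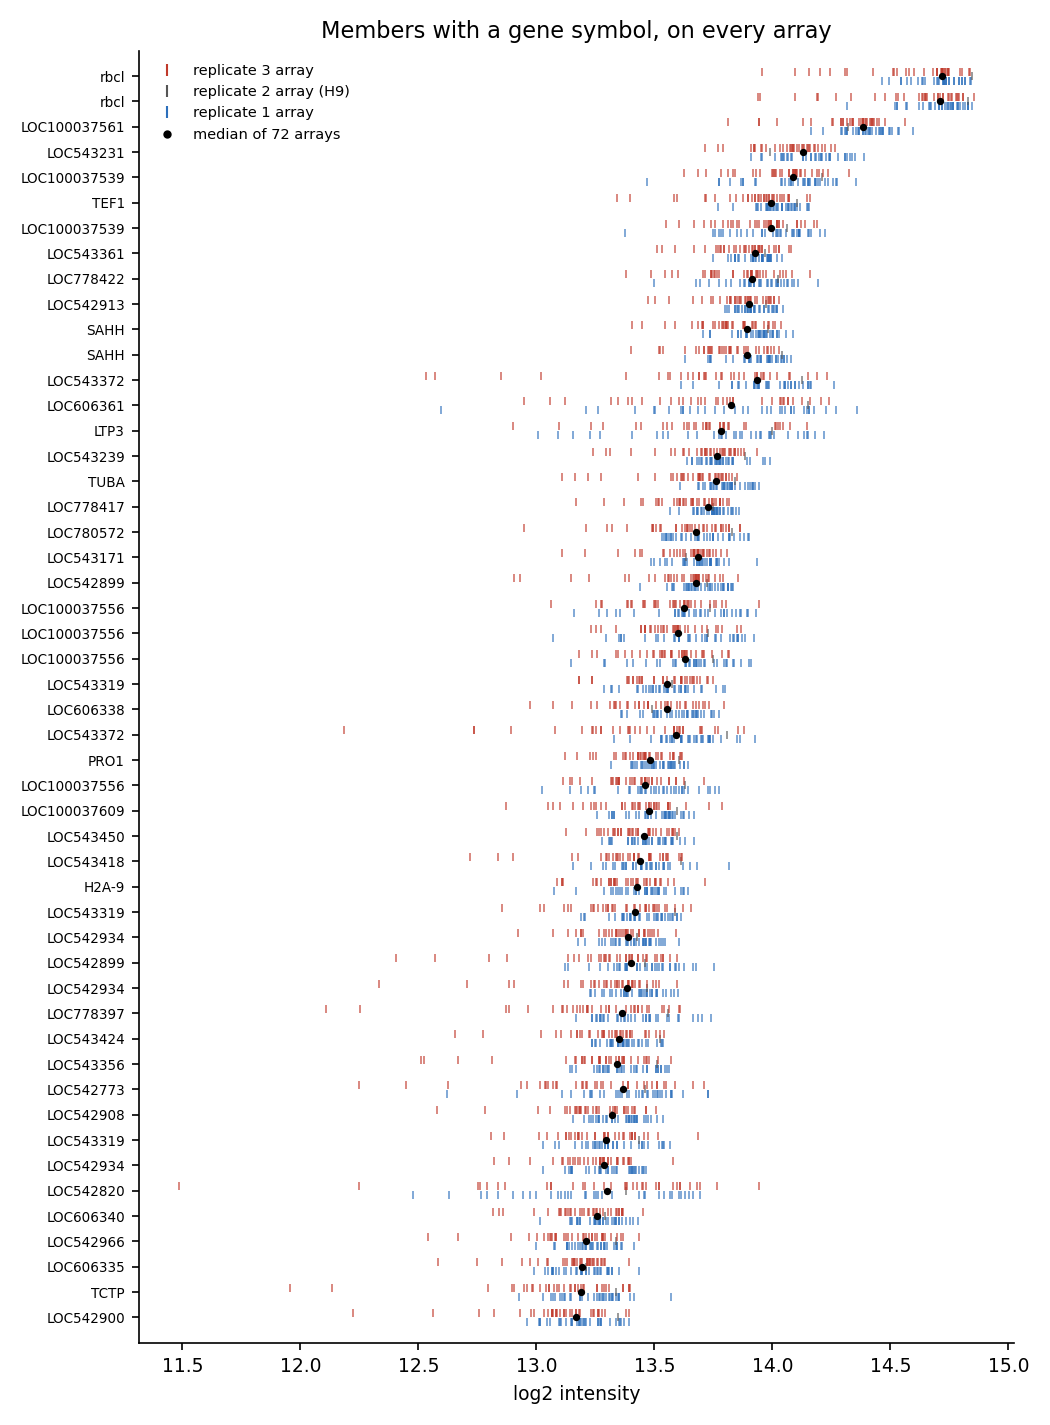
Log2 intensity of each of the 50 members with a gene symbol (rows, brightest mean at the top) on the 72 arrays. Red ticks are replicate 3 arrays, blue ticks replicate 1, grey the replicate 2 array of H9, and black dots the median; most rows have a tight cluster and a tail to the left made mainly of replicate 3 arrays.

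The photosynthetic member recognised by name was rbcl, with the 2 brightest probe sets of the array. Its brightest probe set ranged between 13.96 and 14.85 over the 72 arrays, with a median of 14.72. The other ranged between 13.94 and 14.85, with a median of 14.71. Most arrays lay just below the highest value, and the lowest array in both cases was B33 replicate 3. Rbcl is a chloroplast gene, and 28 probe sets carry its symbol in the annotation. The 26 that were not members had means between 3.22 and 8.39, so the symbol alone does not say that a probe set is bright. None of the nuclear photosynthesis genes found for the same list was a member. Their brightest probe sets read PsbO (LOC543291, mean 12.53), petC (12.38) and PsbP (LOC543290, 12.25), subunits of photosystem II and of the cytochrome complex. The genes rbcS and cab were listed too, but no probe set was found under these names. As 150 members carry no symbol, whether such genes are among them was not read.

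The translation member recognised by name was TEF1, which ranged between 13.34 and 14.16 with a median of 13.99. Its other probe set lay just outside the group, at rank 275 with a mean of 12.97. The member belongs to the largest family of related members. Probe set names begin with the number of a sequence cluster, and 7 members share TEF1's. The 6 others carry no symbol, and 1 of them, Ta.659.4.S1_a_at, was the brightest member without one (rank 4). It ranged between 13.79 and 14.61, with a median of 14.37. The initiation factor and ribosomal protein genes found for the list, such as eIF4E, RPL9 and RPS29, had no member probe set. RPL9 and RPS29 were the only ribosomal protein genes found by name. Whether members without a symbol read other ribosomal proteins was not analysed here.

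SAHH had both of its probe sets among the members. One (rank 28) ranged between 13.40 and 14.09 with a median of 13.89, and the other (rank 30) between 13.40 and 14.08 with the same median. Both were lowest on an array of the dim set, E5 replicate 3 and B33 replicate 3.

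The cytoskeletal members were TUBA and PRO1. TUBA ranged between 13.11 and 13.94 with a median of 13.76, while its other probe set averaged 8.86. A member without a symbol, Ta.812.4.S1_at (SD 0.214), shares the sequence cluster of the TUBA member. PRO1 ranged between 13.12 and 13.64 with a median of 13.48 and was the steadiest member with a symbol (SD 0.109 over 72 arrays). The beta-tubulin probe sets came close without entering the group, with means between 11.74 and 13.01. The chromatin member, H2A-9, ranged between 13.07 and 13.71 with a median of 13.42. Its 5 other probe sets averaged between 11.60 and 12.68, and both probe sets of histone wcH2B-6 (LOC543183) averaged 13.06 and 12.99. Ta.27657.4.S1_x_at (SD 0.166), a member without a symbol, shares the sequence cluster of H2A-9.

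LTP3 behaved differently from the members named so far. It ranged between 12.90 and 14.22 with a median of 13.78, and its SD of 0.300 lay far above the members' median of 0.160. Its other probe set averaged 5.76. A further 3 members of LTP3's sequence cluster carry the symbols LOC100037539 (ranks 14 and 18) and LOC778422 (rank 26), and their SDs were 0.171, 0.164 and 0.164. TCTP was near the lower edge (rank 189). It ranged between 11.95 and 13.57 with a median of 13.19, and its lowest array was C31 replicate 3.

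The brightest genes known only by locus number were LOC100037561 (rank 3), LOC543231 (rank 11) and LOC100037539. LOC100037561 ranged between 13.81 and 14.59 with a median of 14.38. LOC543231 ranged between 13.71 and 14.39 with a median of 14.13. LOC100037539 had both of its probe sets in the group, with medians of 14.09 and 13.99. The other genes of this kind among the 30 brightest members with a symbol were LOC543361, LOC778422, LOC542913, LOC543372, LOC606361, LOC543239, LOC778417, LOC780572, LOC543171, LOC542899, LOC100037556, LOC543319, LOC606338 and LOC100037609. A further 2 members without a symbol, Ta.23013.3.S1_s_at and Ta.27117.2.S1_a_at, followed Ta.659.4.S1_a_at in brightness, both with a mean of 14.23.

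Lists of seed genes were read for contrast. Of 13 probe sets of gliadin and glutenin genes, 0 were members, and their means lay between 3.17 and 6.67. The same held for 9 probe sets of embryo and desiccation genes (3.25 to 6.22) and for 15 of grain inhibitors such as serpins (3.68 to 5.79). The 3 starch probe sets were brighter, with means between 9.03 and 12.70, and also outside the group. Of 6 redox and 2 heat shock probe sets 0 were members. The lists cover only genes found by name, and listed names such as APX, SOD and ACT had no probe set. Since 150 members carry no symbol, a count of 0 does not show that a kind of gene is absent from the members. One member each came from the lists for translation (of 8 probe sets), cytoskeleton (of 10), chromatin (of 20) and defence (of 3, here LTP3), and 2 from the list for green seed layers (of 36, both rbcl). A member without a symbol, Ta.24114.13.S1_at, shares its sequence cluster with probe sets of the listed gliadin genes LOC543210, LOC543212 and LOC543385. Whether it reads a gliadin transcript was not analysed here.

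In the comparison of replicate 3 with replicate 1, described in full below, 3 of the 8 translation probe sets were lower in replicate 3 and 0 higher at an adjusted p under 0.05 (limma, Benjamini-Hochberg over all 61179). Of all probe sets 1.98% were lower and 0.616% higher. These were both TEF1 probe sets and eIF4E (LOC543485, difference of -0.21, SE 0.05). Of the 20 chromatin probe sets 2 were lower and 0 higher, both reading Hmgb3 (LOC543333), and of the 10 cytoskeletal ones 1 was lower and 0 higher, TUBA. Of the 9 embryo and desiccation probe sets 1 was lower, of the 36 for green seed layers 1 that is no member was higher, and the other 6 lists had 0 calls. With the hybridisation day as a block every one of these calls was lost. In the test between lines 2 of the 3 starch probe sets, 1 of the 36 for green seed layers and 1 of the 6 redox ones were called at the same threshold, none a member. The other 8 lists had 0 calls, beside 2.54% of all probe sets called.

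The probe design of the members differed from that of the whole array. Probe sets with the suffix _x_at, in which some probes match other sequences as well, made up 43% of the members and 11.1% of all probe sets. Those with _a_at or _s_at, whose probes are shared by several transcripts of a gene or a family, made up 16% and 10% of the members, against 5.43% and 4.31% of all. Plain _at probe sets were 31% of the members and 79.2% of all. Names that begin with TaAffx were held by 4.5% of the members and 48.5% of all. The members fell into 137 sequence clusters, and 42 clusters with at least 2 members held 104 of the 200. Members of a cluster share sequence and are not independent of each other. How many gene copies of the wheat subgenomes each probe set reads was not analysed here.

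Different probe sets of the same gene were compared over the arrays. Among the 8 genes with at least 2 member probe sets, 17 pairs could be formed. In 17 of 17 pairs the difference between the probe sets varied less over the 72 arrays than either probe set did. The SD of that difference lay between 0.0508 and 0.132, with a median of 0.0892. The 2 rbcl probe sets had the smallest one, beside SDs of 0.184 and 0.202 for the probe sets themselves. Pairs share probes or sequence to an extent that was not analysed here. A shift shared by all members on an array, described below, also cancels in such a difference. Pairs of different genes were not read, so whether the smaller spread is particular to probe sets of the same gene was not tested.

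The members were steadier than most probe sets on the log2 scale. Their SD over the 72 arrays had a median of 0.160, with quartiles of 0.137 and 0.188. The next 200 probe sets by rank had a median of 0.192, and all 61179 had 0.226. An SD over 0.3 was found in 10 members, or 5%, against 28.1% of all probe sets. The range of the line means had a median of 0.503 in the members, 0.607 in the next 200 and 0.718 over all. A low SD was not particular to bright probe sets. It was 0.149 at the median for the 12796 probe sets with a mean of 3 to 4, and highest, at 0.320, for the 5868 with a mean of 7 to 8. Since the rule chose members by their mean and the SD moves with the mean, these medians carry no test. Whether the brightest signals approached the upper limit of the scanner was not tested.

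**Figure D2:**
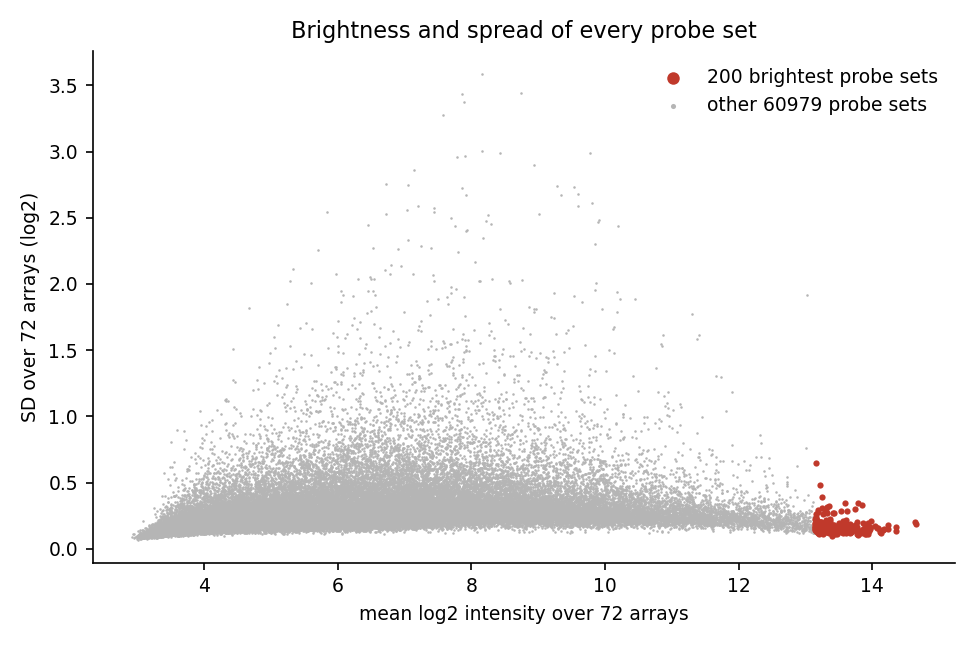
Mean log2 intensity over 72 arrays (horizontal) against the SD over the same arrays (vertical) for all 61179 probe sets, with the 200 members in red and the others in grey. The members lie at the right with SDs mostly under 0.3; the widest spreads are found at middle intensities.

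The steadiest member, Ta.14324.3.S1_x_at, ranged between 13.04 and 13.58 with a median of 13.41 (SD 0.0953). It was followed among the unnamed members by Ta.28713.2.S1_at (SD 0.102) and Ta.23051.1.A1_a_at (SD 0.113). After PRO1, the steadiest members with a symbol were LOC542913 (SD 0.112), LOC543450 (0.113), LOC543361 (0.113) and LOC542934 (0.122 for its steadiest probe set). LOC542913 ranged between 13.47 and 14.05 with a median of 13.90. LOC543361 ranged between 13.51 and 14.08 with a median of 13.92. In each of these the lowest array was one of the 4 dim arrays.

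The most variable member was TaAffx.144000.1.S1_s_at (SD 0.645). It ranged between 11.22 on A10 replicate 3 and 14.23 on A77 replicate 3, with a median of 13.33. Its line means spanned 2.31 log2 units, with F38b lowest at 11.76 and A77 highest at 14.07. Next came Ta.304.2.S1_a_at (SD 0.484), with its 4 lowest arrays C31, B33, H8 and A81, all of replicate 3, at 11.60 to 12.13. Its median was 13.29 and its highest array 13.99. Ta.24732.1.S1_at (SD 0.344) had its lowest value, 11.97, on B33 replicate 3 and its highest, 14.01, on G13 replicate 3.

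Among genes with a symbol the spread was widest for LOC542820 (SD 0.393), LOC606361 (0.348), LOC543372 (0.331 and 0.287) and LTP3 (0.300), followed by LOC542773 (0.282). LOC542820 ranged between 11.49 on H8 replicate 3 and 13.94 on B68 replicate 3, with a median of 13.30. LOC543372 at rank 31 ranged between 12.53 on A81 replicate 3 and 14.26 on F48 replicate 1, with a median of 13.93. Its 4 lowest arrays, A81, C31, B33 and H8 of replicate 3, were the same ones as for Ta.304.2.S1_a_at.

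Membership was also read array by array. Between 148 and 186 members, with a median of 176, were among the 200 brightest probe sets of a single array. On all 72 arrays 85 members were in the array's own top 200, among them rbcl, TEF1, SAHH, TUBA and PRO1. In all, 143 were there on at least 60 arrays, and 5 on fewer than 36. The deepest fall of a member on any array was to rank 2021. Over the arrays 427 different probe sets entered a top 200 at least once. The members held between 10.7% and 12.7% of the summed intensity of an array.

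Much of the members' spread was shared by all of them on an array. The mean over the members had an SD of 0.116 over the 72 arrays, with a lowest array at 12.97 and a highest at 13.61. When each array was centred on that mean, the median SD of the members dropped to 0.109, against 0.160 as deposited, and 194 of the 200 had a lower SD. B33 replicate 3 alone was the lowest array for 106 members, E5 replicate 3 for 28, C31 replicate 3 for 22 and H8 replicate 3 for 11. The lowest array was a replicate 3 array for 179 of the 200 members, and the highest was one for 75.

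The dim arrays were not dim throughout. Their medians over all probe sets, 5.35 to 5.40, lay within the range of the 72 arrays (5.31 to 5.44), while the next 200 probe sets averaged 12.35 to 12.64 on them, against a median of 12.95. The log2 of the 3′ to 5′ ratio, averaged over 7 control genes, is a sign of RNA integrity. It was 1.64 on B33, 1.57 on C31 and 1.53 on H8, near the upper end of the range over all arrays (0.51 to 1.79), and 0.77 on E5. Some arrays outside the dim set had high ratios too, such as D39 replicate 1 (1.79) and A81 replicate 3 (1.61). Their means over the members were 13.53 and 13.43. The 18S rRNA control stood at 8.28, 6.90, 6.24 and 8.58 log2 units on B33, C31, H8 and E5. Each value lay below the median of 9.59 over the 72 arrays (range 6.15 to 11.84). The reporter control, which reads no wheat transcript, had its lowest values of the 72 arrays on E5 (13.06) and C31 (13.18). It stood at 13.32 on B33 and 13.42 on H8, against a median of 13.46. The part of RNA quality or of hybridisation in the dim signal was not tested.

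**Figure D3:**
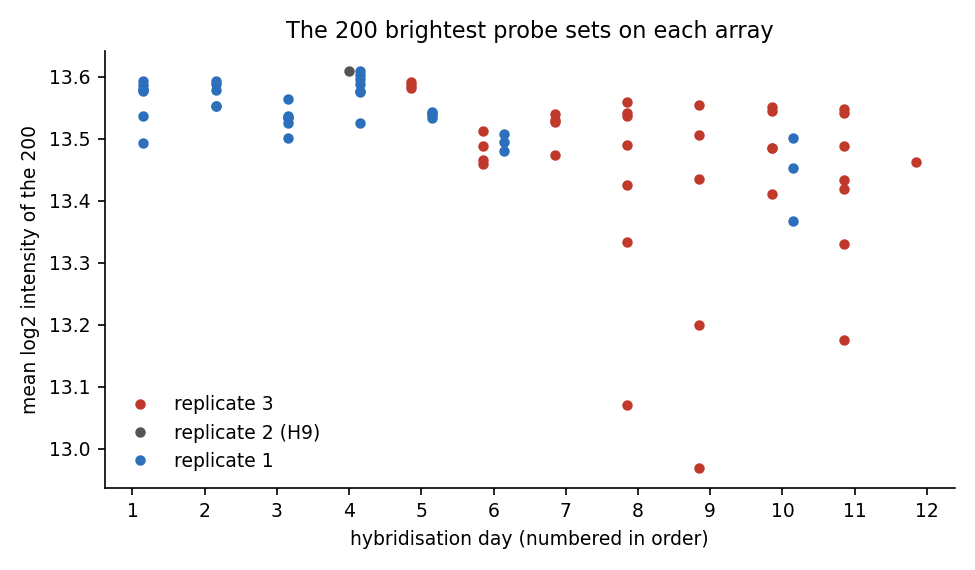
Mean log2 intensity of the 200 members on each array (vertical) by hybridisation day (horizontal), in red for replicate 3, grey for the replicate 2 array of H9 and blue for replicate 1. The 4 arrays below 13.25 are all of replicate 3 and were hybridised on days 8, 9 and 11; replicate 1 arrays lie between 13.37 and 13.61.

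Differences between lines were tested with a moderated F-test over the 36 lines (limma, Benjamini-Hochberg adjustment over all 61179 probe sets, adjusted p under 0.05). The call was made for 4 of the 200 members, or 2.00%, against 2.54% of all probe sets, so the members' share is near the background. Of the next 200 by rank, 6 were called. Unadjusted p-values under 0.05 were found in 21 members (10.5%, against 13.9% of all). The share of variance between lines, given by the intraclass correlation, had a median of -0.0137 in the members and 0.0641 over all probe sets, and was negative in 103 members. Without the unmatched lines 8 members were called, but the count over all 61179 probe sets rose as well, to 2477 against 1553.

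Of the members with a symbol, LOC606361 was the single call. Its member probe set ranged between 12.59 and 14.36 over the arrays with a median of 13.83, while its other probe set averaged 4.70. The line means of the member probe set spanned 1.13 log2 units, with C25 lowest at 13.11 and C10 highest at 14.24. C25 is one of the unmatched lines, so its arrays may not be of the same line. They were far apart, at 13.62 for replicate 3 and 12.59 for replicate 1, while those of C10 were at 14.13 and 14.36. Between these ends the lines formed a gradual series without separate levels. The intraclass correlation was 0.529, and the adjusted p in the limma F-test was 0.0122. The call held with each of the 72 arrays left out and in the other fits, with adjusted p-values between 0.000825 and 0.0458. A member of the same sequence cluster without a symbol, Ta.4327.2.S1_at, had an intraclass correlation of 0.413 and an adjusted p of 0.0995.

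The 3 other calls carry no symbol. Ta.28368.1.S1_x_at had line means between 12.97 in B33 and 13.62 in F82 (adjusted p 0.0159 in the limma F-test). It was called with each of the 72 arrays left out and in 9 of 11 other settings, but not with the day as a block or with arrays centred on the members' mean. Ta.24732.1.S1_at had line means between 12.36 in B33 and 13.93 in G13 (adjusted p 0.0364). It was called in 57 of the 72 fits that left out 1 array and in 7 of 11 other settings. The call was lost without the 4 dim arrays, without the 3 farthest arrays (B33 replicate 3 is in both sets), without the unmatched lines and with the day as a block. Ta.28658.1.S1_at had line means between 12.89 in C31 and 13.62 in A35 (adjusted p 0.0474), and the call was made in 16 of the 72 fits that left out 1 array and in 6 of 11 other settings. With the day as a block all 3 calls were lost.

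LTP3, with an intraclass correlation of 0.376 and line means that were lowest in B33 and reached 14.12 in F82, missed the threshold (adjusted p 0.141 in the limma F-test). It passed without the unmatched lines (adjusted p 0.0426). LOC542820, the most variable member with a symbol, had an intraclass correlation of 0.0983 and an adjusted p of 0.603: its spread lay mostly within lines. Rbcl (0.766 and 0.754), TEF1 (0.778), SAHH (0.897 and 0.934), TUBA (0.929), PRO1 (0.919), H2A-9 (0.797) and TCTP (0.867) had high adjusted p-values in the same test. A p-value above the threshold does not show that the lines were alike.

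**Figure D4:**
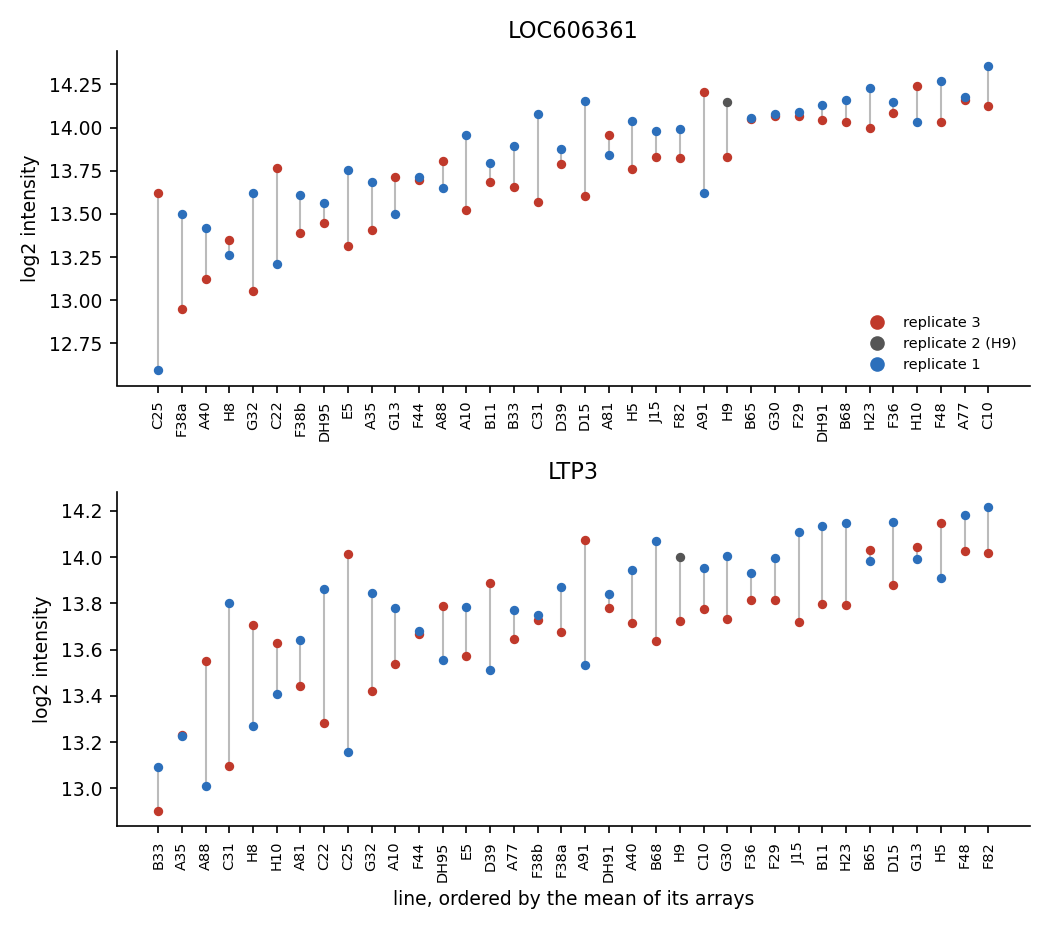
Log2 intensity of LOC606361 (top) and LTP3 (bottom) in the 36 lines, each ordered by the mean of its arrays, with red points for replicate 3, grey for replicate 2 of H9 and blue for replicate 1, joined by a grey line. LOC606361 spans line means of 13.11 to 14.24 and LTP3 reaches 14.12; the arrays of several lines, such as C25, lie far apart.

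Replicate 3 was compared with replicate 1 in the 35 lines that hold both, with the line as a block. Of the members 34 were lower in replicate 3, or 17.0%, against 1.98% of all probe sets, and 0 were higher, against 0.616% of all (limma, adjusted p under 0.05). In either direction 2.6% of all probe sets were called. The falls among the called members measured between -0.10 and -0.41 log2 units. Of all members 194 had an estimate below 0, with a median of -0.09, against a median of -0.0044 over all probe sets. The next 200 by rank had 25 calls, all lower, and a median estimate of -0.09. The lower values were thus shared with probe sets just below the members in brightness.

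The replicate numbers cannot be told apart fully from the hybridisation days. Days 1 to 4 held no replicate 3 array, days 7, 8, 9, 11 and 12 held no replicate 1 array, and days 5, 6 and 10 held both. On those days the mean over the members was 13.59 in 3 replicate 3 arrays and 13.54 in 4 replicate 1 arrays (day 5), 13.48 in 4 and 13.49 in 3 (day 6), and 13.50 in 5 and 13.44 in 3 (day 10). Of the 200 members, 59 were lower in replicate 3 on day 5, 119 on day 6 and 53 on day 10. With the day as an added block, 0 members and 0 of all probe sets were called by limma, and 1 member had an unadjusted p under 0.05.

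The dim arrays weighed on the count as well. Over the members, replicate 3 arrays had a mean of 13.45 ± 0.14 (SD, n = 36) and replicate 1 arrays 13.54 ± 0.05 (SD, n = 35), and the 4 dim arrays were all in the first. Without those 4 arrays 9 members were lower and 0 higher, beside 930 lower and 604 higher of all probe sets. After quantile normalisation, which forces all arrays to the same distribution, the split was 1 lower and 3 higher, beside 1024 and 657 of all. With each array centred on its mean over the members it was 4 lower and 8 higher, beside 518 and 12314 of all. That setting moves the median estimate of all probe sets to 0.09.

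TUBA had the smallest adjusted p of the members with a symbol. It ranged between 13.11 and 13.85 in replicate 3 with a median of 13.69, and between 13.61 and 13.94 in replicate 1 with a median of 13.81. The groups overlapped, the replicate 3 arrays reaching lower. The difference was -0.16 (SE 0.03, adjusted p 0.0149 in limma), and TUBA was higher in replicate 3 in 4 of the 35 lines. It was called in 8 of 11 other settings, among them that without the 4 dim arrays, at -0.12 (adjusted p 0.0243). The call was lost after quantile normalisation, at -0.08 (adjusted p 0.0737), without the unmatched lines, at -0.19 (adjusted p 0.0741), and with the day as a block, at -0.06 (adjusted p 0.885).

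SAHH was lower in replicate 3 by both probe sets, with differences of -0.13 (SE 0.03, adjusted p 0.0207 in limma) and -0.14 (SE 0.03, adjusted p 0.0213). The first ranged between 13.40 and 14.04 in replicate 3 with a median of 13.81, and between 13.71 and 14.09 in replicate 1 with a median of 13.95. The groups overlapped between 13.71 and 14.04, and replicate 3 arrays reached lower. Without the dim arrays the adjusted p-values were 0.0580 and 0.0531, just outside the threshold.

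LOC543372 had the largest differences among members with a symbol, -0.27 (SE 0.06, adjusted p 0.0223 in limma) and -0.24 (SE 0.05, adjusted p 0.0200). The first probe set ranged between 12.53 and 14.23 in replicate 3 with a median of 13.79, and between 13.61 and 14.26 in replicate 1 with a median of 13.98. A few replicate 3 arrays were far below all others, and the remaining ones overlapped with replicate 1. The other named members called were LOC778417 (-0.12, SE 0.03, adjusted p 0.0308), TEF1 (-0.12, SE 0.03, adjusted p 0.0430) and LOC543231 (-0.10, SE 0.03, adjusted p 0.0492). For all 3 the call was lost without the dim arrays, with adjusted p-values of 0.0850, 0.115 and 0.151. After quantile normalisation the call was lost for all 8 probe sets with a symbol, with adjusted p-values between 0.0525 and 0.852 in limma. Rbcl, at -0.12 and -0.13, had adjusted p-values of 0.0844 and 0.0853.

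Among members without a symbol the smallest adjusted p-values belonged to TaAffx.10350.1.S1_x_at (-0.13, SE 0.03, adjusted p 0.0149 in limma), Ta.28055.2.S1_a_at (-0.12, SE 0.02, 0.0155) and Ta.1058.2.S1_x_at (-0.14, SE 0.03, 0.0188), the last from the cluster of LOC543372. The largest fall was that of Ta.304.2.S1_a_at (-0.41, SE 0.10, adjusted p 0.0213). The reporter control had means of 13.50 and 13.49 on the replicate 3 and replicate 1 arrays, and its values on the dim arrays are given above.

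**Figure D5:**
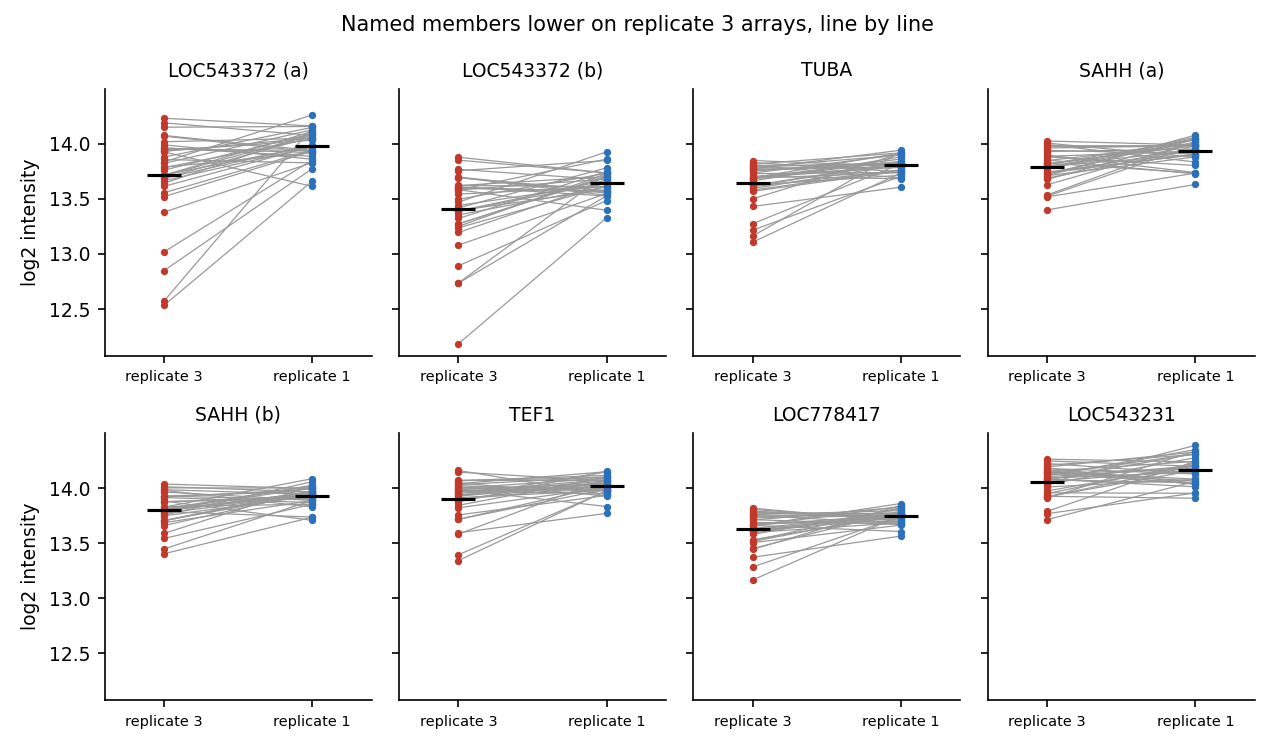
Log2 intensity of the 8 member probe sets with a symbol that were lower in replicate 3, line by line: red points are replicate 3 arrays, blue points replicate 1 arrays of the same 35 lines, grey lines join the arrays of a line and black bars are the means. For genes with 2 probe sets, (a) is the one with the larger difference; the groups overlap in every panel, and a few replicate 3 arrays lie well below the rest.

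Differences between hybridisation days were tested with a moderated F-test and the line as a block. Of the members 28 were called, or 14.0%, against 18.7% of all probe sets, and of the next 200 by rank 34 (limma, adjusted p under 0.05). The members' share was thus below the background. Of the 34 members lower in replicate 3, 15 were also called here. Without the line block 121 members, or 60.5%, were called, against 41.3% of all probe sets.

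LOC543372 had the smallest adjusted p-values of the members with a symbol in this test, 0.00112 and 0.00166 in limma. Its rank 31 probe set averaged 13.08 ± 0.43 on day 9 (SD, n = 5) and 13.50 ± 0.42 on day 8 (SD, n = 7), both without replicate 1 arrays, and between 13.81 and 14.07 on the other days. The other named members called were LOC543319 (adjusted p 0.0190 for 1 of its 3 member probe sets), LOC542934 (0.0248 for 1 of 3), TUBA (0.0255), SAHH (0.0443 for 1 of 2) and LOC543231 (0.0481). Without a symbol, Ta.24548.1.S1_at (0.00225), Ta.1316.2.S1_x_at (0.00450) and Ta.2752.3.S1_x_at (0.00948) had the smallest adjusted p-values. Ta.24548.1.S1_at averaged 13.45 to 13.65 on days 1 to 5 and 13.15 to 13.42 on days 6 to 12.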

How the data were processed

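The authors deposited 1 table of linear intensities per probe set (6.02 to 29610). RMA made it, per the submitters' processing notes; its version, and if the arrays were processed jointly, are not given in the sources used here. Log2 was taken from the deposited intensities with a pseudocount of 0. The 111 Affymetrix controls were dropped, with no filter on the rest. Tests ran with limma 3.58.1 in R 4.3.3 over all 61179 other probe sets, and were tested on simulated data. Gene symbols come from the supplied annotation; no genomic coordinates are given because its build is not named. Hybridisation days come from each array's run record. The number of arrays limits the precision.

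Named are the 30 brightest members with a symbol and, among those without, the 3 highest means, the 3 largest and smallest SDs and the 3 smallest adjusted p-values of each test. H2A-9, TCTP, LOC543450, LOC542934, LOC542773, LOC542820, Ta.4327.2.S1_at, Ta.24114.13.S1_at, Ta.812.4.S1_at and Ta.27657.4.S1_x_at lie outside that rule. They were chosen after their values were seen, as were genes on the lists that were not members. The members, lists and tests were all chosen with earlier results of these data known. Alternatives covered the normalisation, the pseudocount, a filter, blocks and arrays left out.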

Additional observations from a re-analysis of the deposited data

How the results depend on the processing

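Membership hardly depended on the ranking. Between 197 and 200 of the 200 were kept when probe sets were ranked by the median, by linear intensities, by ranks within arrays, after quantile normalisation or without the 3 farthest arrays, 194 with replicate 1 arrays alone, 192 with replicate 3 arrays alone, and 199 to 200 with each array left out. The median SD of 0.160 was 0.166 after median centring, 0.160 with a pseudocount of 16, 0.136 without the 3 farthest arrays, 0.125 without the 4 dim arrays and 0.110 after quantile normalisation. It was 0.180 in replicate 3 arrays alone, 0.114 in replicate 1 arrays alone, and 0.146 to 0.161 with each array left out.

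The line test called 4 members, and 2 without the 4 dim arrays, with arrays centred on the members' mean or with the day as a block, 8 without the unmatched lines, 6 with a pseudocount of 16, 3 over probe sets with a mean of at least 5, and 2 to 7 with each array left out. It gave 2 without 1 array of G13, D15, F38b (either array), DH95 (replicate 3), A88 or F38a (replicate 1), and 7 without either array of H5 or replicate 1 of C31. With the replicate number as a block 9 members were called, beside 1639 of all probe sets. Over all probe sets the line test called 1553, against 2477 without the unmatched lines and 1501 without the 4 dim arrays. It called 1566 of all with arrays centred on the members' mean and 1619 with the day as a block. The replicate 3 minus replicate 1 differences of 2 lines correlated between -0.663 and 0.625 over all probe sets, with a median of 0.0369. Of 595 pairs of lines 229 were over 0.1, so these values do not settle whether the replicate numbers pair the samples across lines.

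The replicate test called 34 members, all lower in replicate 3. The count was 4 after quantile normalisation, 16 after median centring, 17 without the 3 farthest arrays, 6 with the 3′ to 5′ ratio as a covariate, 9 without the 4 dim arrays, 12 with arrays centred on the members' mean, 2 without the unmatched lines and 0 with the day as a block. It was 38 with a pseudocount of 16, 39 over probe sets with a mean of at least 5, and 35 with no line block. With each line left out it ran between 13 (without B11) and 57 (without H5). It was also below 23 without F82, C31, H23, F48, A77, H8, A10, A35, A91, F44, DH91 or F29. Over all 61179 probe sets the replicate test called 1590, and this count moved too. It was 1681 after quantile normalisation, 1305 after median centring, 1372 without the 3 farthest arrays and 483 with the 3′ to 5′ ratio. It was 1534 without the 4 dim arrays, 12832 with arrays centred on the members' mean and 137 without the unmatched lines. With the day as a block 0 were called. The rank 30 probe set of SAHH changed sign with the day as a block, to 0.0034 (adjusted p 0.995 in limma). The other 7 called probe sets with a symbol stayed negative under each setting. The cause of these shifts was not tested.

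The day test called 28 members, against 41 without the 3 farthest arrays, 39 with a pseudocount of 16, 31 with the 3′ to 5′ ratio, 20 after median centring, 17 after quantile normalisation, 17 without the 4 dim arrays, 10 with arrays centred on the members' mean, 1 without the unmatched lines and 121 with no line block. Over all probe sets it called 11471, against 10413 without the 3 farthest arrays and 7656 without the 4 dim arrays. The count over all was 12346 with arrays centred on the members' mean, 944 without the unmatched lines and 25259 with no line block. The dim-array settings, the centring on the members' mean and, for the replicate and day tests, the fits without the unmatched lines were chosen after seeing the data.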
